A study of Mus musculus with 24 samples.

Results

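The 7 leukemia arrays of the series fell into 2 sides that cut across the cell lines. M0-p20 replicates 0 and 3 lay with J365-p20 replicate 3 (called the 3-array side), and M0-p20 replicates 1 and 2 lay with J365-p20 replicates 0 and 1 (the 4-array side). These 7 arrays were taken of 24 in all. The sides were chosen from the expression values themselves, so differences between them are given as a description without a test. Both lines are murine leukemic myeloid cells. J365-p20 is read here as DA1-3b/D365, cells isolated from mice after a long dormancy in a model based on immunotherapy, and M0-p20 as parental DA1-3b, although the titles name neither and the reading rests on the single leukemia comparison that the study describes. The dormant cells had been amplified in vitro and frozen before analysis. The labels give no treatment, passage date or culture state that separates the sides, nor do they say that replicates came from separate cultures. The other 17 arrays hold B16 melanoma lines.

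An expression array reports the amount of each RNA as the brightness of a spot of matching probe. Cells in culture shift their RNA in recognisable programmes: low oxygen induces glycolytic enzymes and *Bnip3*, serum and cytokines induce *Fos* and *Egr2* within minutes, and amino acid shortage acts through *Atf4*. Alongside protein-coding messengers the array also measures long noncoding RNAs, many of which stay in the nucleus, and many transcripts known only from a cDNA clone or an annotated interval of the genome.

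Levels are given as log2 signal relative to the 75th percentile of the array, so that 0 is a bright spot and each unit is a factor of 2. A side difference is the level on the 3-array side minus that on the 4-array side with the line as a covariate. A transcript was called higher when this difference was at least 1, or 2-fold, and every array of the 3-array side lay above every array of the 4-array side within each line. Of 23044 transcripts whose probe cleared the background on 3 or more arrays, 1482 were higher (6.43%) and 6 were lower (0.026%). Nearly all calls were thus in one direction, but the lower count changed with the arrays used. It was 345 without M0-p20 replicate 1 and 245 without J365-p20 replicate 3. Leaving out an array also loosens the rule, and without J365-p20 replicate 3 it covered M0-p20 only. With another background correction (normexp) 252 transcripts were higher and 2 lower. Scaling to the array median, which moved the median of all transcripts to -0.31, gave 939 and 51. Without the fold limit, 13.8% of transcripts lay apart in the higher direction and 5.89% in the lower. At the limit, the 3 higher transcripts just inside had a side difference of 1.00 and the 3 just outside 0.9996, 0.9995 and 0.9995. In the lower direction the 3 just inside lay at -1.07, -1.09 and -1.12, and the 3 just outside, which include *Nos1*, at -0.96, -0.96 and -0.91.

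The transcripts that were higher on the 3-array side mostly carried no gene symbol here. Symbols were joined through RefSeq accessions, and whether a probe filed otherwise lies in a known gene was not examined. Transcripts with a gene symbol made up 92 of the 1482 (6.21%), and transcripts without one made up 1390 (93.8%). Among the 13277 with a symbol that were tested 0.693% were higher, against 14.2% of the 9767 without. Transcripts known by an AK accession, which denotes an entry of a cDNA clone, were higher in 538 of 2251 cases (23.9%). Transcripts filed under an Ensembl identifier were higher in 557 of 3450 cases (16.1%), and genomic intervals in 154 of 1953 (7.89%). Only 66 of 12412 protein-coding genes were higher (0.532%), well under the 6.43% of all transcripts, with 26 of 865 named noncoding genes (3.01%). The count of 66 became 16 with normexp and 108 with scaling to the spike-in. It was 235 without J365-p20 replicate 3, where the rule covered M0-p20 only. The median side difference was 0.40 for AK cDNAs, 0.12 for Ensembl transcripts and 0.02 for genomic intervals. For protein-coding genes it was -0.09, near the median of -0.05 over all transcripts. Relative to all transcripts, the median of AK cDNAs was 0.45, but 0.22 with normexp and 0.052 without the filter on dim probes, and that of Ensembl transcripts was 0.17 and 0.036 without the filter.

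**Figure D1:**
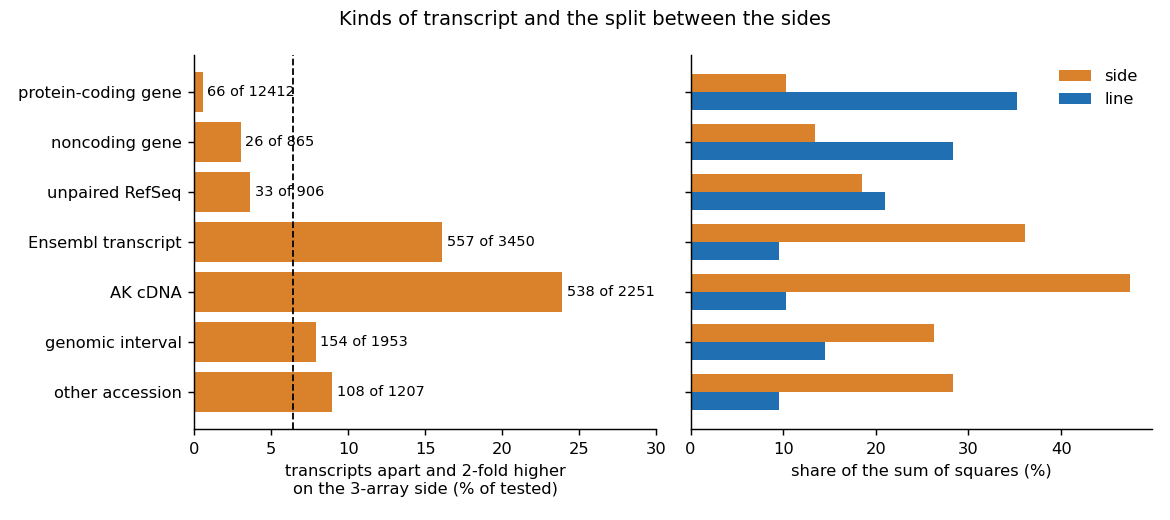
Left, percent of the tested transcripts of each kind that were apart and 2-fold higher on the 3-array side, with the number of transcripts; the dashed line marks all transcripts (6.43%). Right, percent of the sum of squares over the 7 arrays due to the side and to the line; the side takes more than the line for AK cDNAs (47.5% and 10.3%) and less for protein-coding genes (10.3% and 35.3%).

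A transcript could enter the comparison through the 3-array side alone, since 3 arrays above the background sufficed. For 140 of the 1482 the probe cleared the background on no array of the 4-array side. With the comparison limited to probes well above the background on all 7 arrays, 842 of 19316 transcripts were higher (4.36%), among them 316 of 1573 AK cDNAs (20.1%), 338 of 2709 Ensembl transcripts (12.5%) and 36 of 11317 protein-coding genes (0.318%). AK cDNAs were also dimmer than protein-coding genes, with a median level of -2.86 against 1.00. Among transcripts of mean level between -3 and -2, the median side difference was 0.54 for 439 AK cDNAs, 0.51 for 490 Ensembl transcripts and -0.04 for 820 protein-coding genes. Between -1 and 0 it was 0.29 for 166 AK cDNAs and -0.06 for 1216 protein-coding genes. Among transcripts brighter than 0 it was -0.04 for 276 AK cDNAs and -0.11 for 7668 protein-coding genes. Of these bright transcripts 6.52% of AK cDNAs, 2.62% of Ensembl transcripts and 0.17% of protein-coding genes were called higher. The kinds thus differed at like brightness in calls, while their medians lay close among bright transcripts.

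Over the arrays, the 1482 transcripts had a median level of -2.07 on M0-p20 replicate 0, -2.22 on M0-p20 replicate 3 and -2.48 on J365-p20 replicate 3. On the 4-array side the medians were -3.78 and -3.64 on M0-p20 replicates 1 and 2, and -3.44 and -4.15 on J365-p20 replicates 0 and 1. Within the lines the median difference was 1.48 in M0-p20 and 1.29 in J365-p20. Across all transcripts, however, the differences within the 2 lines, which share no array, had little in common: the correlation across transcripts was 0.07 and 43.9% had the same sign. It was 0.41 across the 2251 AK cDNAs, 0.18 across the Ensembl transcripts and -0.37 across the protein-coding genes, where transcripts share arrays and are not independent.

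Set beside the dormancy change, the split was larger in number of transcripts but not in protein-coding genes. The sides were chosen from these same values while the lines come from the titles, so the sizes are not on an equal footing. By a common rule on pooled arrays, apart without overlap and 2-fold, 1500 transcripts were higher on the 3-array side (6.51%) and 3 lower (0.013%). By the same rule 185 were higher in J365-p20 than in M0-p20 (0.803%) and 259 lower (1.12%). For protein-coding genes the order turned: 59 were higher on the 3-array side, while 132 were higher and 176 lower in J365-p20. With limma, 115 transcripts passed as higher in J365-p20 (0.499%) and 134 as lower (0.581%), of which 178 were protein-coding genes and 10 AK cDNAs. The side accounted for 24.8% of the sum of squares over all transcripts and the line for 21.3%. With normexp these shares were 21.3% and 20.3%, and with quantile normalization 22.9% and 22.3%. Without M0-p20 replicate 0 the order was turned, with 23.7% as the share of sum of squares due to side and 28.1% as the share of sum of squares due to line, and with the slide as a block they were 15.2% and 21.4%.

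The long noncoding RNAs *Kcnq1ot1* and *Lncpint* were 2 of the 3 named genes with several probes on which every probe was called higher, together with *B130006D01Rik*. *Kcnq1ot1* is the long, unspliced antisense transcript of the imprinted *Kcnq1* domain and acts in the nucleus. *Lncpint* is a long noncoding RNA induced by p53. *Kcnq1ot1*, singled out after its values were seen, stood at 3.49, 3.39 and 2.94 on the 3-array side, in the order M0-p20 replicates 0 and 3 and J365-p20 replicate 3. On the 4-array side it stood at 1.84 and 2.28 in M0-p20 and at 2.30 and 1.71 in J365-p20. The groups did not overlap, with means of 3.27 ± 0.30 (SD, n = 3) and 2.03 ± 0.30 (SD, n = 4) and a side difference of 1.20. Its other 3 probes had side differences of 1.19, 2.00 and 1.48. *Lncpint* stood at -0.87, -0.29 and -0.52 on the 3-array side. Its levels on the 4-array side were -1.82 and -1.89 in M0-p20 and -2.51 and -2.61 in J365-p20. The sides did not overlap. Its side difference was 1.58 (2.99-fold), and 1.21 with its other probe.

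**Figure D2:**
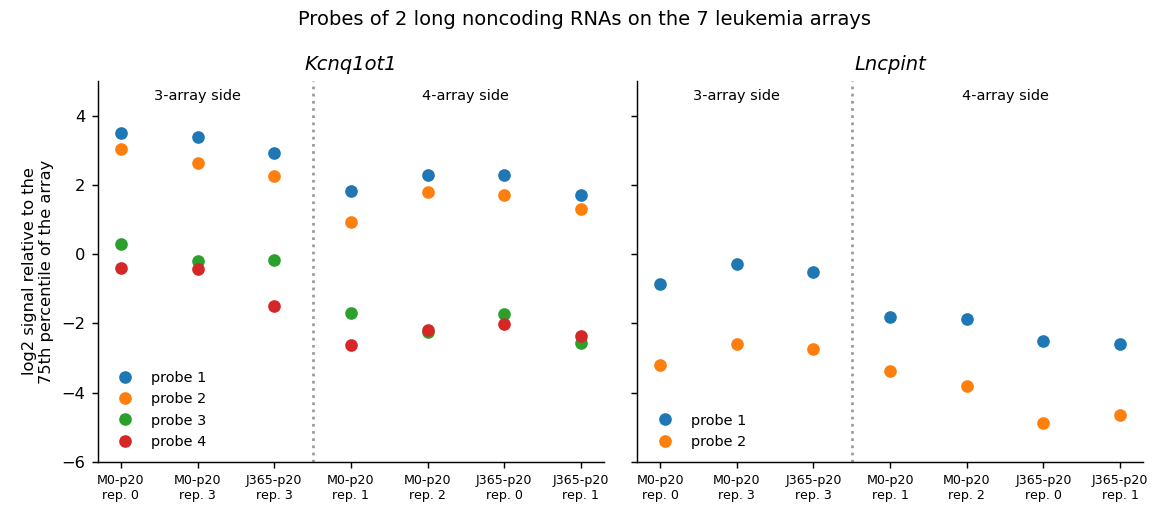
Log2 signal of every tested probe of *Kcnq1ot1* (4 probes) and *Lncpint* (2 probes) on the 7 leukemia arrays, relative to the 75th percentile of the array. Within each line, all probes lay higher on the 3-array side (left of the dotted line) than on the 4-array side.

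Of all named noncoding genes tested 3.01% were higher, above the 0.532% of protein-coding genes and below the 6.43% of all transcripts. The 5 long noncoding RNAs given next were picked after their values were seen and were not called. *Neat1*, the scaffold of nuclear paraspeckles, had a side difference of 0.43 with overlapping sides. *Tug1* had 0.36 and *Ftx*, a regulator from the X inactivation centre, 0.80, both apart but under 2-fold. *Airn*, like *Kcnq1ot1* an imprinted antisense transcript, had 1.47 in M0-p20 and -0.56 in J365-p20. *Norad*, a cytoplasmic long noncoding RNA, had -0.01.

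The promoters of *Kcnq1ot1* and *Lncpint* are shown because both RNAs are well-known genes with all probes higher. The probes of *B130006D01Rik*, whose promoter is not shown, had side differences of 2.02 and 2.21. The sequences are those of RefSeq in the build GRCm38.p6, 250 bases before and 50 after the annotated start, 5′ to 3′ on the strand of the gene. *Kcnq1ot1* lies on the minus strand at chr7:143296498-143296797 and *Lncpint* on the minus strand at chr6:31218425-31218724. Capitals mark the CCAAT box, searched as CCAAT on both strands.
Kcnq1ot1: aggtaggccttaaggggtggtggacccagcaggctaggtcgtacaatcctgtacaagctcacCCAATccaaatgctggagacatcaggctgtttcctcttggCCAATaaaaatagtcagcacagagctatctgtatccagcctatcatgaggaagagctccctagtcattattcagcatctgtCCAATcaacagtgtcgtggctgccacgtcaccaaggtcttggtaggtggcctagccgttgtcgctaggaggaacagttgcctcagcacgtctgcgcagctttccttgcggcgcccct
Lncpint: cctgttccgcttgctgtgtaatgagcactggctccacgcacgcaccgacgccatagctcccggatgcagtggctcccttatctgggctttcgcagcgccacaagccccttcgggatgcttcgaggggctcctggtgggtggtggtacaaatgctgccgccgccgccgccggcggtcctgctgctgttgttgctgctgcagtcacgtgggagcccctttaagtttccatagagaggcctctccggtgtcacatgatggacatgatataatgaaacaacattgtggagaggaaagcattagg
The window of *Kcnq1ot1* held 3 CCAAT boxes and that of *Lncpint* none. Of the 92 higher genes with a symbol 62 had a promoter in the table, and 43.5% of these held CCAAT against 38.7% of 10618 tested genes. The shares were 21.0% and 24.8% for the hypoxia element ACGTG, 8.06% and 3.81% for the D-box TTANNTAA of the clock output factors, and 4.84% and 14.3% for the core TGACNNNGC bound by NRF2. The D-box and NRF2 shares of the higher genes rest on only 5 and 3 of the 62 promoters. More motifs were searched than are given here, and no difference was tested. The GC content of the promoters had a median of 55.8% in the higher genes and 59.7% in all.

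The named genes described next had the largest side differences among those with a probe well above the background on all arrays. *Pou5f2*, a POU domain factor of male germ cells, stood on the 4-array side at -4.30 and -3.63 in M0-p20 and -3.17 and -3.64 in J365-p20. It stood at -1.21, -1.81 and -1.82 on the 3-array side, a side difference of 2.11 (4.31-fold). The sides did not overlap. *Cabp5*, a calcium sensor of retinal neurons, was far brighter, with levels of 4.33, 3.80 and 3.12 against 1.68, 2.52, 2.76 and 2.00. *St6galnac1*, a sialyltransferase of mucin-type glycans, had 2.48, 1.96 and 1.30 against -0.40, 0.33, 0.90 and 0.14. In both the sides did not overlap, and J365-p20 replicate 3 was the lowest of the 3-array side. A further 8 genes named by size had side differences from 1.41 to 1.81. They were *Tbrg3*, the muscle methyltransferase gene *Mettl21c*, the progesterone receptor family gene *Paqr6*, the cadherin gene *Cdh7*, the synaptic gene *Lzts3*, the centriole gene *Rttn*, the adaptor gene *Shc4* and *Lncpint*.

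**Figure D3:**
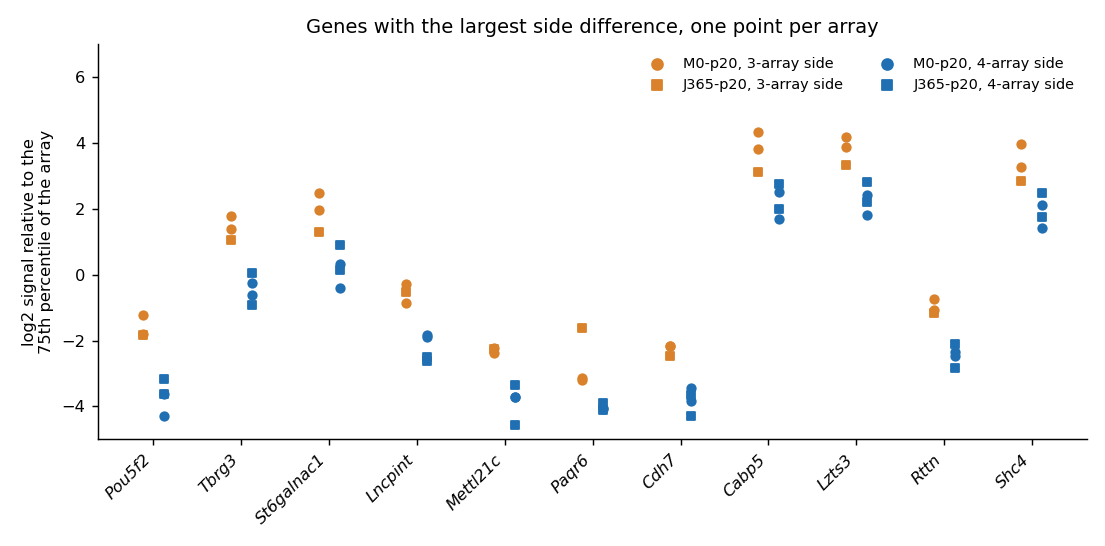
Log2 signal, relative to the 75th percentile of the array, of 11 named genes with a large side difference, 1 point per array (circles M0-p20, squares J365-p20). Points of the 3-array side lie above those of the 4-array side for every gene.

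Different probes of these genes often disagreed. Of the 92 higher genes 16 had several tested probes, and of their 25 other probes 5 were called higher, 20 had a side difference above 0 and the median was 0.35. *St6galnac1* had -0.37 with its other probe, *Shc4* 0.07 and *Rttn* -0.08 and 0.38. *Ahnak*, a giant scaffold protein, had 1.39 with its brightest probe and -0.17 and -0.12 with the others. *Herc2*, a ubiquitin ligase, had 1.14 with the brightest and 0.25 to 0.48 with 3 others. The values of *Ahnak* and *Herc2* were picked after they were seen. A call for such a gene thus holds for a probe and not for the gene as a whole. Where an interval was tested on both strands, which was so for 282 intervals, the reverse strand alone was higher in 22, the forward strand alone in 11, both in 3 and neither in 246.

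Among transcripts without a symbol, the largest difference with a probe above the background on all arrays was that of AK142804. It stood at 0.66, 0.39 and 0.12 on the 3-array side and at -1.82, -2.41, -1.88 and -3.25 on the 4-array side, a side difference of 2.65 (6.29-fold). AK142062 followed with 2.62. The 6 lower transcripts were mostly dim. ENSMUST00000188041 was the only one of them with a probe above the background on all arrays, at 1.30, 2.73 and 1.86 against 2.76, 3.52, 2.45 and 3.23, a side difference of -1.07. AK165483 cleared the background on no array of the 3-array side and was at least 2.13-fold lower there. *Vmn1r219*, a vomeronasal receptor gene, likewise was at least 2.95-fold lower, and the noncoding *Mirt2* had -1.09.

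Few members of the pathway lists passed the limit. Over 45 lists of genes for culture, stress, cycle and identity programmes, 744 distinct members were tested, of which 1 was called higher and 0 lower, against 6.43% and 0.026% of all transcripts. Of the members 738 were protein-coding genes, of which as a kind 0.532% were higher. The count of called members moved with the arrays used and with the limit. It was 31 without J365-p20 replicate 3, where the rule covered M0-p20 only, 5 without M0-p20 replicate 0 and 7 at 1.5-fold. The list members lay apart without the fold limit in 13 cases in the higher direction (1.75%) and in 60 in the lower (8.06%), against 13.8% and 5.89% of all transcripts and 4.63% and 8.35% of protein-coding genes. List medians of the side difference ran from -0.31 for the hypoxia response to 0.01 for ribosome biogenesis, beside -0.05 over all transcripts and -0.09 over protein-coding genes. The list of mitochondrially encoded genes had no tested member. The single call was *Itga1*, the collagen-binding integrin alpha 1, of 19 integrin and adhesion genes tested. It stood at -2.56, -2.83 and -3.62 on the 3-array side and at -5.93, -4.10, -3.69 and -4.64 on the 4-array side. Its side difference was 1.61, with 2.32 in M0-p20 and 0.55 in J365-p20, and its probe was above the background on 2 of 4 arrays of the 4-array side.

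Of the 44 lists with a tested member, the circadian clock list held the highest share of members apart, 4 higher and 1 lower of 13, all under 2-fold, followed closely by mitosis. Of protein-coding genes 4.63% lay apart higher and 8.35% lower. The clock is a feedback loop in which CLOCK and ARNTL drive the genes of their own inhibitors. *Clock* had levels of -0.38, -0.44 and -0.40 on the 3-array side and of -1.26, -1.13, -0.68 and -1.10 on the 4-array side, a side difference of 0.66. The inhibitor *Cry1* had 0.72, the repressor *Nr1d2* 0.26 and *Per3* 0.78, the last above the background on 3 arrays. *Arntl*, the partner of *Clock*, had -0.39. The median of the list was -0.07, near that of all transcripts. These members and those of the next lists were picked for lying apart.

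Cell cycle genes lay apart in either direction. Of 32 mitosis genes 4 were apart higher and 8 apart lower, where 4.63% and 8.35% of protein-coding genes and 13.8% and 5.89% of all transcripts lay apart. *Mki67*, the proliferation marker, had 0.28, the cytokinesis motor *Kif23* 0.39, and the kinetochore genes *Cenpf* and *Cenpe* 0.20 and 0.10. *Cdk1*, the kinase that starts mitosis, had -0.52, with 1.15, 1.74 and 1.66 on the 3-array side against 2.13, 2.08, 2.04 and 1.89. *Aurkb* had -0.29 and the cyclin *Ccnb1* -0.22. Of 39 replication genes 3 were apart, all lower, a share near that of protein-coding genes, among them *Cdc45* at -0.38 and *Mcm5* at -0.21.

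Most factors that head the lists had a small side difference with the line as covariate. In some of them the 2 lines differed, as for *Foxo3* with -0.61 in M0-p20 and 0.71 in J365-p20. In the same order *Xbp1* had -0.76 and 0.15, and *Stat5a* 0.10 and -1.17. *Atf4*, the factor of the amino acid response, had a side difference of -0.10, *Hif1a* -0.19, *Srebf2*, which drives sterol synthesis, -0.23, and *Nfe2l2*, the oxidative stress factor NRF2, -0.18. *Trp53* had -0.02, *Hsf1* -0.06, *Xbp1* -0.40, *Foxo3* -0.08, *Nr3c1* -0.01, *Myc* -0.07, *E2f1* 0.04, *Stat5a* -0.41 and *Tfeb* -0.08. None of these 13 lay apart, while *Clock*, given above, had 0.66 and lay apart higher. *Irf7* of the interferon response (-0.30) and the metal sensor *Mtf1* (-0.19) lay apart lower. As a kind, 4.63% of protein-coding genes lay apart higher and 8.35% lower. The receptors *Csf2rb*, *Csf2rb2* and *Il3ra*, which serve interleukin 3, had -0.14, -0.21 and -0.15 with overlapping sides.

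Some lists differed between the sides in the same direction in both lines, such as NF-kB targets at -0.21 in M0-p20 and -0.25 in J365-p20. The NF-kB list mean was, however, lowest on M0-p20 replicate 0 (-0.49) and highest on J365-p20 replicate 0 (0.44). Its median relative to all transcripts was -0.19, and 0.0087 without both replicate 0 arrays. The hypoxia, glycolysis and immediate early lists differed in opposite directions. The hypoxia list differed by -0.995 between the sides in M0-p20 and by 0.637 in J365-p20, glycolysis by -0.65 and 0.38, and the immediate early genes by -0.68 and 0.36. These values moved with the array numbered 0 in each line. The mean level of the 19 hypoxia genes was 3.54 on M0-p20 replicate 0 and 3.55 on J365-p20 replicate 0, and between 4.75 and 5.28 on the other 5 arrays. M0-p20 replicate 0 lies on the 3-array side and J365-p20 replicate 0 on the 4-array side. *Bnip3*, a mitophagy receptor induced by low oxygen, stood at 5.77 and 5.76 on these 2 arrays and between 7.31 and 7.92 on the others. *Slc2a1*, the glucose transporter, stood at 4.17 and 4.24 against 5.72 to 6.19. *Fos* stood at -0.84 and -0.39 against 1.79 to 2.31, and *Egr2* at -2.95 and -3.07 against -0.62 to 0.65.

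In counts, 18 of 19 hypoxia genes (94.7%), 17 of 20 glycolysis genes (85.0%) and 18 of 22 immediate early genes (81.8%) were lowest on the array numbered 0 in both lines, against 19.5% of all transcripts. Ribosome biogenesis genes ran the other way, 22 of 30 (73.3%) being highest on it in both lines, against 15.1% of all. This division was noticed in these data and is given without a test. With both replicate 0 arrays left out, a choice made after seeing the data, 1507 transcripts were higher on the 3-array side, 1109 of them among the 1482, and 39 were lower. The hypoxia median, relative to that of all transcripts, then went from -0.26 to -0.07.

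**Figure D4:**
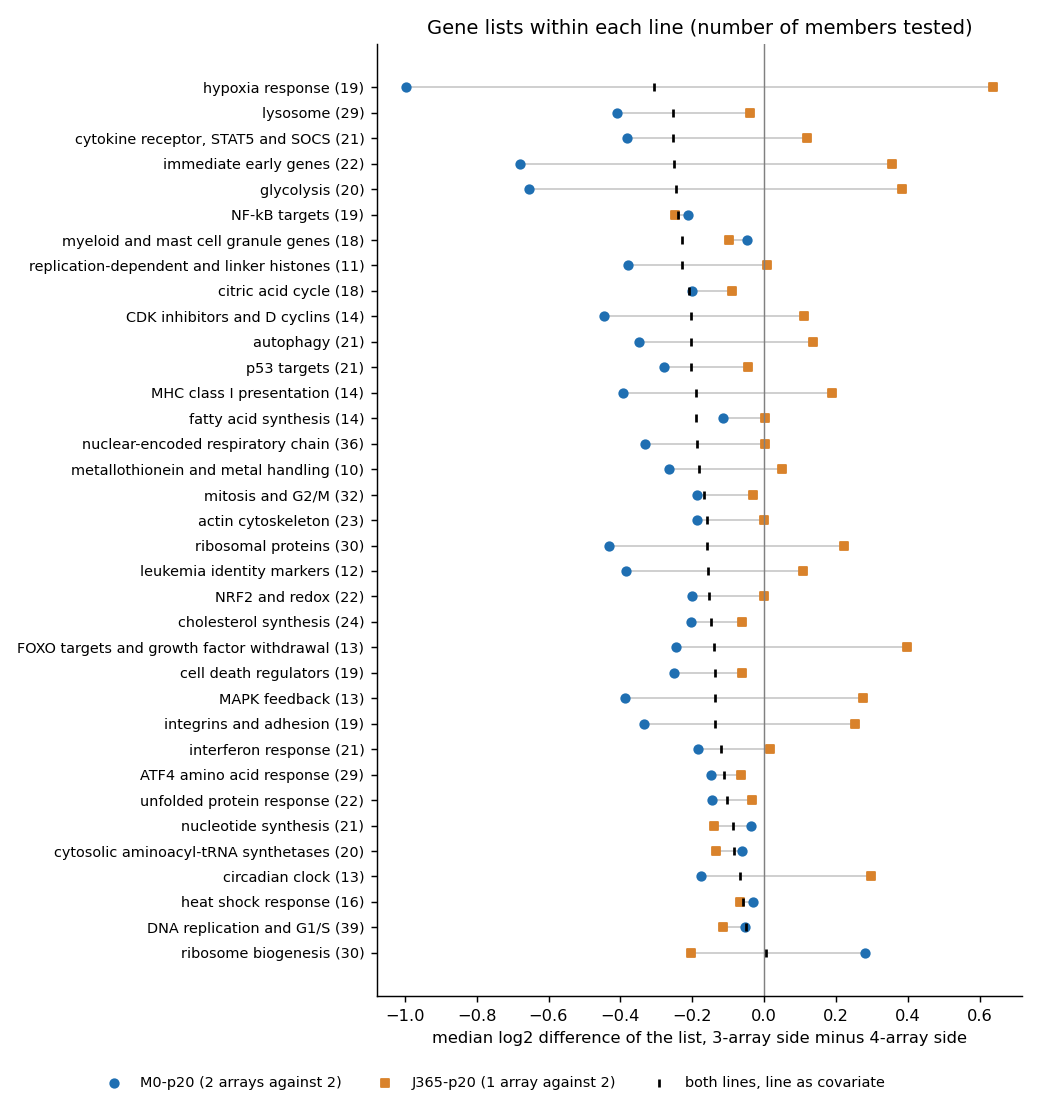
Median log2 difference between the sides (3-array minus 4-array) for the lists with at least 10 tested members, in M0-p20 (circles), in J365-p20 (squares) and in both with line as covariate (black ticks). The hypoxia response, glycolysis and immediate early genes lie at opposite sides of 0 in the 2 lines, at -0.995 and 0.637 for the first.

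The marker genes of the cells gave no calls. All 12 leukemia identity markers were tested and 0 were called. Of 12412 protein-coding genes 0.532% were called higher and 1 lower, so 0 calls among so few markers say little about them. The linear sum of their levels ran from 190.1 to 217.7 on the 3-array side and from 210.3 to 266.0 on the 4-array side, in units of the 75th percentile. Of the other cell types, 5 of 8 melanocyte, 6 of 11 macrophage, 6 of 10 lymphocyte, 5 of 9 erythroid and platelet and 1 of 8 stromal markers were tested, and 0 of these were called. Their sums overlapped between the sides in each list, at 4.83 to 6.15 against 5.39 to 6.40 for macrophages. The brightest were *Hba-a1* at 2.97 and 2.99, *Cd3d* at 2.17 and 2.30, *Csf1r* at 1.25 and 1.30, *Mitf* at 1.03 and 1.27 and *Col1a2* at -4.71 and -4.57. The markers not tested include *Mlana* and *Tyrp1*, *C1qa* and *Mrc1*, and *Ms4a1*, which were not well above the background on 3 arrays. Other members of the same lists, *Mitf*, *Csf1r* and *Cd3d*, stood above the 75th percentile on both sides. Whether such cells were present was not tested.

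On each of the 7 arrays between 49.5% and 54.5% of spots were well above the background and 0 were saturated. The array median, relative to the 75th percentile, was higher on the 3-array side within each line. It was -4.03 and -3.98 against -4.49 and -4.27 in M0-p20, and -4.29 against -4.42 and -4.33 in J365-p20. Scaling to this median gave 939 higher and 51 lower transcripts, as stated above, and its part in the result was not tested. The log2 signal of a spiked-in control RNA, before scaling, was 10.38 to 10.42 on the 3-array side and 10.53 to 10.75 on the 4-array side, without overlap. Relative to the 75th percentile it ran from 1.29 to 1.504 and from 1.17 to 1.83. The part of this in the result was not tested. With levels scaled to this control, chosen after seeing the data, 1846 transcripts were higher and 1 lower. Within M0-p20 the 3-array side was on slide 2 and the 4-array side on slides 1 and 3, and in J365-p20 each array had a slide of its own, so that within a line side and slide cannot be told apart. A slide holds both sides only across the lines. On slide 2, M0-p20 replicates 0 and 3 exceeded J365-p20 replicate 0 by a median of 1.24 over the 1482 transcripts, and on slide 1 J365-p20 replicate 3 exceeded M0-p20 replicate 1 by 1.27. These transcripts were picked on the same arrays, and over all transcripts the medians were 0.04 and 0.01. Slide 3 holds the 4-array side only.

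On the melanoma arrays, which the choice of sides did not use, the same 1482 transcripts also varied together between arrays of a line. Their median level ran from -5.04 to -2.51 over the 4 B16-D arrays, from -4.86 to -3.25 over the 3 B16-M arrays, and over 1.62, 1.25 and 1.19 units in B16-D-735, B16-D-739 and B16-D-733. B16-D replicate 2, the highest, stood apart with 90.3% of its spots well above the background, and without it the range in B16-D ended at -3.32. In each of the 5 melanoma lines the lowest array was the one whose title is coded 0. On it 81.8% of the 1482 were lowest in B16-D, 88.7% in B16-M, 89.3% in B16-D-735, 85.6% in B16-D-739 and 68.6% in B16-D-733. Of all tested transcripts, 30% to 34.8% were lowest on that array. On it, 30.5% of the 1482 were well above the background in B16-D, 46.6% in B16-M and 49.3% in B16-D-735. The share was 48.9% in B16-D-739 and 57.6% in B16-D-733, against 62.5% to 96.8% on the other melanoma arrays. B16-D replicate 0 also had the lowest share of all spots well above the background among melanoma arrays, 46.0%. The medians on arrays coded 0 thus rest in part on signal near the background, and their size is uncertain.

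*Kcnq1ot1* stood between -0.23 and 0.43 on the 5 melanoma arrays coded 0 and between 0.96 and 2.04 on the other 12. *Lncpint* stood between -2.73 and -1.65 on the former and between -1.42 and 0.50 on the latter. In the leukemia lines the code did not order the arrays so: J365-p20 replicate 0 is on the lower side and M0-p20 replicate 0 on the higher. The hypoxia list, lowest on the leukemia replicate 0 arrays, was not lowest there in B16-M. Its mean was 1.52 on B16-M replicate 0 and 1.46 and 1.71 on replicates 1 and 2. Ribosome biogenesis genes, highest on the leukemia replicate 0 arrays, were highest on B16-M replicate 0 too, at 3.19 against 2.72 and 2.83. They were highest on the array coded 0 in each melanoma line but B16-D-733. Immediate early genes, lowest on the leukemia replicate 0 arrays, were highest on the array coded 0 in each of the 5 melanoma lines. In B16-M they stood at -0.76 on replicate 0 against -0.97 and -0.86.

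**Figure D5:**
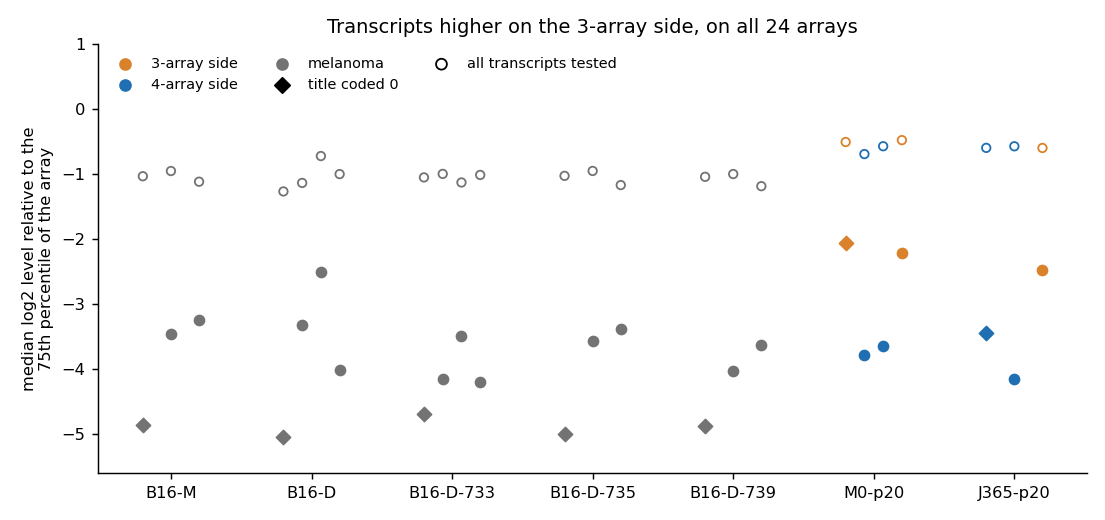
Median log2 level, relative to the 75th percentile, of the 1482 transcripts higher on the 3-array side (filled) and of all tested transcripts (open) on each of the 24 arrays by line. Diamonds mark arrays whose title is coded 0; they are the lowest array of each melanoma line.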

How the data were processed

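RNA of 24 samples was hybridized to mouse arrays of 1 colour, of which the 7 leukemia arrays are described here. The arrays carry 59305 spots that measure 56605 probes, besides 3671 controls. Per the file headers, the authors deposited for each spot an intensity after background subtraction by Agilent Feature Extraction 10.7.3.1, without scaling between arrays. The flags of the scanner software were deposited as 0 or 1 (unit: other). Here, outlier spots were left out, spots of a probe averaged, and the log2 of each deposited intensity taken, less the 75th percentile of its array. Probes were joined to 22907 gene symbols through RefSeq accessions, and 22715 transcripts kept their own identifier. The brightest probe stood for a gene. Probe sequences were not used here. The normexp alternative used the deposited median intensities and median backgrounds in place of the mean intensities planned.

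Side differences are coefficients of a linear model with line and side, in Python 3.11.15 with numpy 2.4.6 and pandas 2.3.3. J365-p20 was compared with M0-p20 in limma 3.58.1 (R 4.3.3), two-sided, with adjustment by Benjamini and Hochberg and a threshold of 0.05. Its p-values measure the spread between these samples only. The members and lists were chosen with earlier results of these data known. Named are the 12 largest differences in each direction with a probe above the background on all arrays (passing over clone names), up to 4 called members per list, the factors that head lists and the brightest marker of each other cell type, and others are marked as picked after their values were seen. Some genes within this rule are not reported here. Bounds set the mean of the brighter side against, on each dim array, the higher of the probe's signal and the lowest signal well above the background. The number of arrays limits the precision.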

Additional observations from a re-analysis of the deposited data

Results flagged for a closer look

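The hypoxia list moved in opposite directions between the sides in the 2 lines, with a median difference of -0.995 in M0-p20 and 0.637 in J365-p20, where every array of M0-p20 on the 3-array side lay below and the array of J365-p20 on that side above the others. The difference between the lines was not tested.

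Single arrays lay far from the others in 4 of 108 groups of values screened. Many genes screened were chosen for their split between the sides, and the groups share arrays. The count therefore cannot be set against a chance rate, and nothing is read from these arrays. *Trp53* stood at 1.10 on J365-p20 replicate 0, far from the other arrays of the 4-array side, and *Csf2rb* at 6.08 on M0-p20 replicate 1. The transcript ENSMUST00000143791, one of the 6 lower on the 3-array side, stood at -1.81 on M0-p20 replicate 2, while the other M0-p20 arrays stood from -6.98 to -6.69. *Meg3*, an imprinted long noncoding RNA, stood at -6.11 on J365-p20 replicate 0.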

How the results depend on the processing

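The 1482 transcripts higher on the 3-array side became 252 with normexp (251 of them shared), 939 with scaling to the array median, 842 with probes above the background on all arrays, 2382 at a 1.5-fold limit and 504 at 3-fold, and ran from 1312 to 2139 without single arrays. The 6 lower became 2, 51, 1, 77 and 1 in the same order, 33 with quantile normalization and also without the filter, 3 without the line as covariate, 39 without both replicate 0 arrays and 1 scaled to the spike-in, and ran from 7 to 345 without single arrays. The 1 list member past the limit became 0 with normexp, 0 with all arrays above the background and 0 with the mean of probes, 2 with the slide as a block, 7 at 1.5-fold and 4 without both replicate 0 arrays, and ran from 1 to 31 without single arrays. The 66 protein-coding genes became 16 with normexp, 39 with quantile normalization, 28 with median scaling, 36 above the background on all arrays, 159 without the filter, 200 at 1.5-fold, 8 at 3-fold and 108 by the spike-in, and ran from 58 to 235 without single arrays.

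The share of sum of squares due to side (24.8%) became 15.2% with the slide as a block and 29.2% without both replicate 0 arrays, and that due to line (21.3%) 17.1% above the background on all arrays; without single arrays they ran from 23.2% to 33.5% and from 18.6% to 29.2%. Over protein-coding genes the side (10.3%) became 19.0% with median scaling, and the line (35.3%) 28.8% with normexp, 27.3% above the background on all arrays, 28.5% without the filter and 42.3% without both replicate 0 arrays; without single arrays they ran from 10.1% to 21.1% and from 30.7% to 46.2%. The median of AK cDNAs relative to all transcripts (0.45) became 0.22 with normexp, 0.28 with quantile normalization and 0.052 without the filter, and ran from 0.35 to 0.54. That of Ensembl transcripts (0.17) became 0.083 with quantile normalization, 0.095 above the background on all arrays and 0.036 without the filter, and ran from 0.095 to 0.32. That of protein-coding genes (-0.04) became -0.095 with the slide as a block and ran from -0.13 to -0.018. The median of all transcripts (-0.05) became -0.079 with normexp, -0.31 with median scaling, 0.043 without the filter, -0.0071 with the slide as a block, 0.20 by the spike-in, -0.080 without both replicate 0 arrays and from -0.049 to 0.012 without single arrays. The cause of these shifts was not tested.

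Deviations of same-numbered leukemia arrays correlated at 0.51 for replicate 0, -0.04 for replicate 1 and 0.16 for replicate 3. The numbers thus did not pair the arrays throughout, though the replicate 0 arrays varied together. The dormancy comparison gave 249 calls in limma, 120 with the replicate block, 106 above the background on all arrays, 221 with the side as covariate and 118 to 275 without single arrays.

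Reversed medians with quantile normalization were 0.010 for the ATF4 list, 0.024 for NRF2, 0.056 for actin, 0.0092 for cholesterol synthesis, 0.038 for the respiratory chain and 0.017 for histones. Without both replicate 0 arrays they were 0.036 for MHC class II, 0.0087 for NF-kB and 0.015 for autophagy. Without single arrays, melanocyte markers ran from -0.25 to 0.14 and metallothionein genes from -0.28 to 0.014. *Rttn* ran from -0.15 to 1.55 without single arrays and became -0.13 without both replicate 0 arrays, and *Ahnak* ran from -0.12 to 2.23 and became -0.21, where a different probe was brightest. The spike-in scaling and the omission of both replicate 0 arrays were chosen after seeing the data. Signal over background limits dim transcripts, which make up most of those higher.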
